A study of Homo sapiens with 9 samples.

Results

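Natural antisense genes are transcribed from the strand opposite a known gene and are named after it with the ending AS and a digit. They were followed here in H1299, a long-established human line from a lung carcinoma, after depletion of FIBP, the acidic fibroblast growth factor intracellular binding protein. Of 60966 genes in the 9 expression tables, 1440 had such a name, and the 315 whose FPKM averaged at least 1 over the 9 samples were taken. FPKM is a fragment count scaled to transcript length and to the number of mapped fragments. Because that level was the criterion, the level itself is a description. Just inside it were RFX3-AS1, LMNTD2-AS1 and FUT8-AS1, at means of 1.004, 1.006 and 1.02 FPKM. Just outside it were ADNP-AS1, RORA-AS1 and PSMB8-AS1, at 0.991, 0.983 and 0.972 FPKM. Of the 1440 names, 502 were at 0 in all 9 samples.

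H1299 cells were transfected with a control siRNA (Scramble, 3 samples), after Si-FIBP#1 (3 samples) or after Si-FIBP#2 (3 samples), 2 different siRNAs against FIBP mRNA, and harvested 48 h later. The labels number 3 samples per group without saying whether these were separate cultures, and 1 cell line under transient knockdown was used. The p-values therefore measure the spread between these samples. FIBP stood at 88.38, 79.49 and 77.74 FPKM in Scramble, at 7.49, 7.77 and 4.30 FPKM after Si-FIBP#1, and at 7.13, 5.92 and 8.21 FPKM after Si-FIBP#2, so every depleted sample was far below every control. The mesenchymal and keratin markers VIM (1592.49 FPKM or more), KRT18 (142.89 or more) and KRT8 (67.15 or more) were high in all samples. The epithelial markers CDH1 (listed at 0 throughout) and EPCAM (at most 0.28) were nearly absent, as were the leukocyte, endothelial and fibroblast markers PTPRC (at most 0.27), PECAM1 (at most 0.20) and COL1A1 (at most 1.59).

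Antisense RNAs can act on the gene they overlap or share a promoter with, for example by recruiting chromatin regulators, by colliding transcription or by pairing with the mRNA, and many are by-products of promoters that fire in both directions. In lung cancer, several are known for work far from their locus, such as the microRNA-binding OIP5-AS1. Their count also depends on the library. The protocol describes oligo(dT) selection and ordinary double-stranded cDNA and names no step that keeps the strand. The strand setting of the counting is not stated either. Where antisense and sense exons overlap, reads of the 2 genes may therefore not have been told apart.

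By GENCODE release 29 on GRCh38, 235 of the 315 genes were annotated as antisense, 39 as processed transcript, 31 as lincRNA and 4 as bidirectional promoter lncRNA. The name led to a sense partner for 310 of them, 308 distinct genes, since PAXIP1 and DLGAP1 each had 2. No such gene was found for HOXB-AS1, HOXA-AS2, HOXC-AS1, HOXC-AS2 and RPARP-AS1. Head-to-head pairs, whose 5′ ends face each other, were the commonest: 135 were head-to-head with overlapping gene spans and 36 head-to-head without overlap, and in 119 of these 171 the start sites lay within 1000 bases. A further 67 overlapped tail to tail and 3 faced each other without overlap. In 46 the antisense gene lay inside its partner and in 23 the partner lay inside the antisense gene. Exons overlapped in 223 pairs. With pairs that share no exonic base included, the median share of antisense exons covered was 6.55% in the 135 overlapping head-to-head pairs. It was 14.9% in the 46 where the antisense gene lay inside. FOXD1-AS1, RNF185-AS1 and RCC2-AS1 were wholly covered by exons of their partner.

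**Figure D1:**
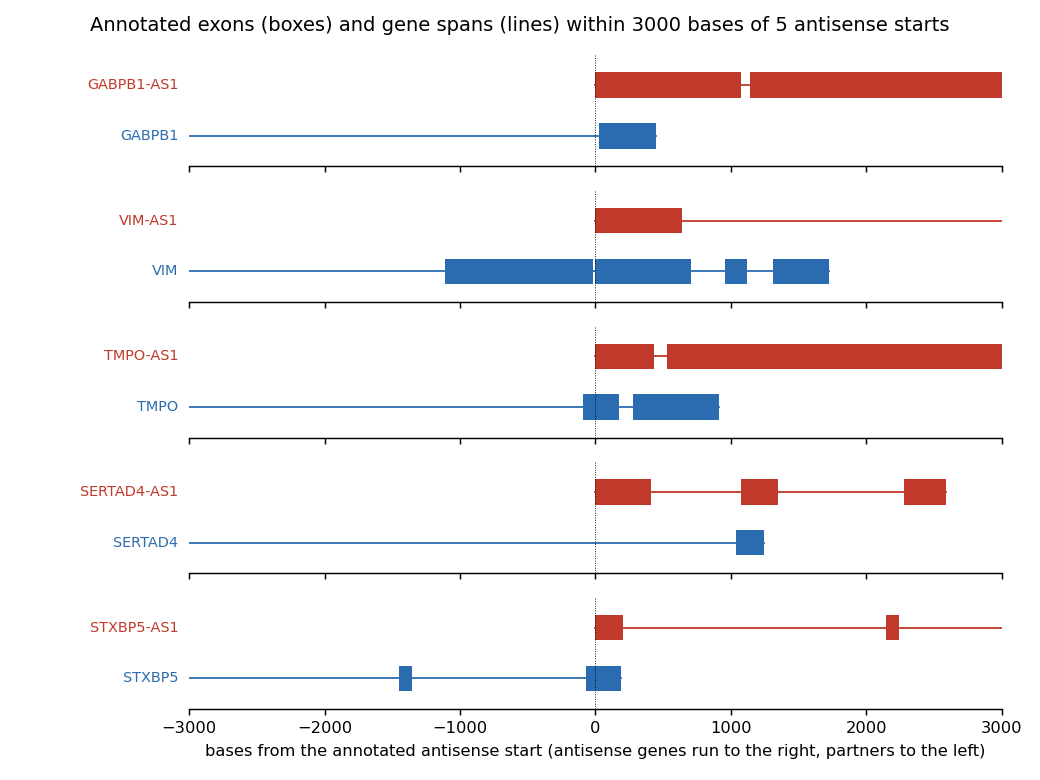
Annotated exons (boxes) and gene spans (lines) of 5 antisense genes (red, running to the right) and their partners (blue, running to the left), plotted in bases from the antisense start and cut at 3000 bases on either side. VIM-AS1 shared 641 exonic bases with VIM, and TMPO-AS1 shared 713 with TMPO.

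Antisense RNAs were scarcer than the mRNAs opposite them. Their mean level over the 9 samples had a median of 3.00 FPKM, with quartiles of 1.70 and 6.35, against a median of 12.5 FPKM for the partners, and 88 of 310 stood above their partner. The highest 10 held 16.7% of the FPKM summed over all 315. FOXD1-AS1 led at 41.6 FPKM, but all 424 of its exonic bases lie opposite FOXD1, a forkhead transcription factor gene at 46.0 FPKM, and the pair moved in parallel across samples. FGD5-AS1 came next. It stood at 42.46, 43.77 and 42.10 FPKM in Scramble, while FGD5, a guanine nucleotide exchange factor gene of endothelial cells, was listed at 0.02 FPKM or less in every sample. NUTM2A-AS1, at 26.64 to 29.68 FPKM, and EPB41L4A-AS1, at 22.01 to 36.06 FPKM, likewise stood far above their partners NUTM2A (at most 0.47 FPKM) and EPB41L4A (at most 5.18 FPKM). GPRC5D-AS1 rose from 16.7 to 27.4 and 25.4 FPKM, while its partner, an orphan receptor gene, was at 1.16 to 3.67 FPKM. OTUD6B-AS1, at 23.27 to 28.79 FPKM, was about level with OTUD6B, a deubiquitinase gene whose start lies 7 bases away, at 19.32 to 31.68 FPKM.

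To ask how these genes responded to FIBP depletion, log2(FPKM + 1) was compared between groups with limma over 14985 genes. A gene passed at a false discovery rate (FDR) below 0.05 and was called when it also changed more than 2-fold on this scale, which understates the change of low genes. With Si-FIBP#1, 111 of the 315 antisense genes rose (35.2%, against 27.8% of all genes tested) and 23 fell (7.30%, against 19.9%). With Si-FIBP#2, 111 rose (35.2%, against 31.1%) and 25 fell (7.94%, against 17.7%). Beyond 2-fold, Si-FIBP#1 raised 23 (7.30%, against 2.55%) and lowered 3 (0.952%, against 3.11%), and Si-FIBP#2 raised 27 (8.57%, against 2.92%) and lowered 2 (0.635%, against 2.13%). The median log2 fold change was 0.21 and 0.24, against 0.07 and 0.11 over all genes. Of the 235 annotated as antisense, 33.6% rose and 6.81% fell after Si-FIBP#1, and 32.3% and 7.66% after Si-FIBP#2. Of the 31 annotated as lincRNA, 61.3% rose and 6.45% fell, and then 58.1% and 3.23%. Of the 39 processed transcripts, 30.8% rose and 10.3% fell, and then 38.5% and 12.8%. Differences between these annotation classes were not tested. The 2 comparisons share the Scramble samples, so their values stand side by side and are not independent.

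**Figure D2:**
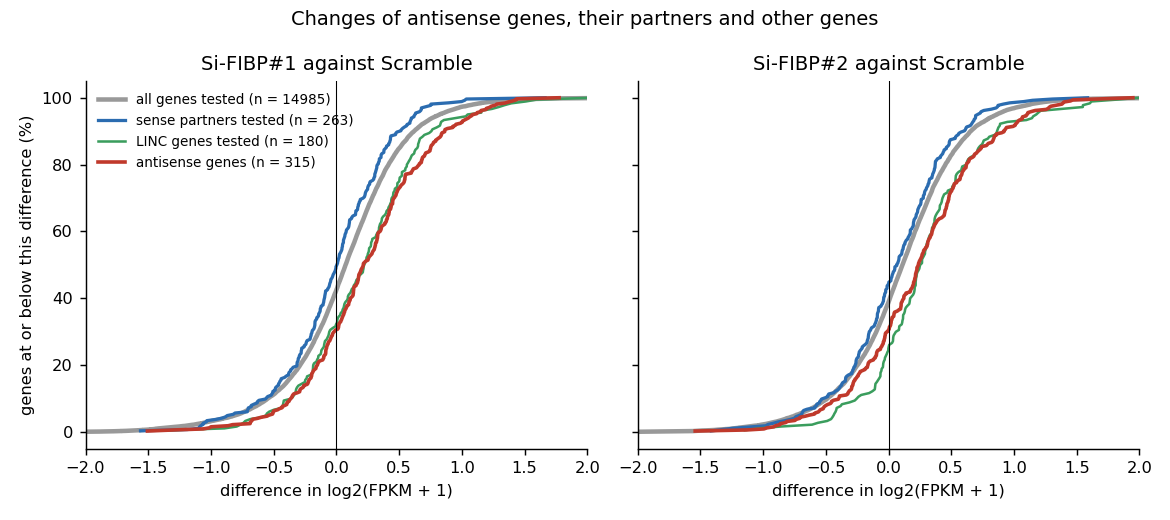
Cumulative share of genes (vertical axis, %) at or below a given difference in log2(FPKM + 1) from Scramble (horizontal axis) for Si-FIBP#1 (left) and Si-FIBP#2 (right). The line of the 315 antisense genes (red) lies to the right of that of all genes (grey), with medians of 0.21 and 0.24 against 0.07 and 0.11, and the line of LINC genes (green) lies close to it.

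The sense partners were counted in the same way. Of 263 partners tested, 65 rose (24.7%) and 67 fell (25.5%) after Si-FIBP#1 and 81 rose (30.8%) and 56 fell (21.3%) after Si-FIBP#2, at medians of 0.01 and 0.07. Other groups of long noncoding genes were counted as well. Among 180 genes named LINC and 5 digits, 57 rose and 17 fell after Si-FIBP#1 (median 0.22) and 54 rose and 10 fell after Si-FIBP#2 (median 0.26). Among 52 divergent transcripts (ending in DT), 27 rose and 1 fell, and then 24 rose and none fell, at medians of 0.43 and 0.37 (limma, FDR). The small nucleolar RNA host genes (SNHG), 25 of them tested, had 2 up and 12 down, and 4 up and 7 down. Differences between these lists were not tested. Dividing each sample by the median of its gene ratios moved the all-gene median from 0.07 to -0.02 and from 0.11 to -0.02. Under that scaling 94 antisense genes rose and 30 fell, and 87 rose and 39 fell, so that the share of rises among those that passed went from 82.8% to 75.8% and from 81.6% to 69.0%. Over all genes 3132 rose and 3793 fell, and 3056 rose and 3943 fell, under that scaling, and this share went from 58.4% to 45.2% and from 63.7% to 43.7%. The antisense median went from 0.21 to 0.14 and from 0.24 to 0.13. Called rises went from 23 to 18 and from 27 to 14, and called falls from 3 to 4 and from 2 to 5, while over all genes called rises went from 382 to 296 and from 438 to 291. For the partners the same share went from 49.2% to 32.3% and from 59.1% to 35.3%, with medians of -0.09 and -0.08.

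The level criterion bears on these counts. In the comparison after Si-FIBP#1, 33 genes averaged under 1 FPKM in Scramble and not with the siRNA, and 8 were the reverse. With Si-FIBP#2 these were 36 and 12. Such genes entered through the group in which they were high. Of the 33 and 36 that were under 1 FPKM in Scramble, 4 and 9 were called, so those calls are a description. SOX9-AS1, TOLLIP-AS1, ATP2B1-AS1, C8orf37-AS1, DNAJC27-AS1, RASSF1-AS1, HOXC-AS1, TAPT1-AS1 and RFX3-AS1, named below, averaged under 1 FPKM in Scramble. H1-10-AS1, also named below, averaged under 1 FPKM after each siRNA and not in Scramble. For the next set, the all-gene shares still come from genes reaching 1 FPKM in 3 or more samples, a looser filter. Among the 218 genes at 1 FPKM or more in each of the 9 samples, 84 rose (38.5%, against 27.8% of all genes) and 19 fell (8.72%, against 19.9%) after Si-FIBP#1. After Si-FIBP#2, 81 rose (37.2%, against 31.1%) and 21 fell (9.63%, against 17.7%), at medians of 0.18 and 0.22. Called rises in this set were 15 (6.88%) and 14 (6.42%), against 2.55% and 2.92% of all genes, and under median ratio scaling they were 12 and 7. That scaling gave 69 up and 24 down, and 60 up and 34 down, by FDR in this set. Among the 63 with no exonic base shared with any annotated gene, 18 rose (28.6%, near the 27.8% of all genes) and 5 fell (7.94%, against 19.9%) after the first siRNA. After the second, 22 rose (34.9%, against 31.1%) and 4 fell (6.35%, against 17.7%), at medians of 0.16 and 0.26. Under median ratio scaling these 63 had 17 up and 6 down, and 19 up and 8 down, at medians of 0.08 and 0.15. Summed over all 315, FPKM ranged from 1414 to 1459 in Scramble, from 1706 to 1723 after Si-FIBP#1 and from 1728 to 1766 after Si-FIBP#2. In bulk RNA, fewer cells with a transcript and less of it per cell cannot be told apart.

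On the mean of both siRNAs the steepest falls among called genes were those of SERTAD4-AS1 and TMPO-AS1, whose partners fell too. TMPO-AS1 was not called after Si-FIBP#2 (-0.90), where RNF185-AS1 (-1.13) fell further. SERTAD4-AS1 stood at 9.29, 10.64 and 9.91 FPKM in Scramble, at 2.29, 2.78 and 3.58 FPKM after Si-FIBP#1 and at 1.59, 3.05 and 4.05 FPKM after Si-FIBP#2. Every depleted sample was below every control, and the log2 fold changes were -1.51 ± 0.22 (SE; limma FDR = 0.00041) and -1.54 ± 0.22 (FDR = 0.00036). SERTAD4, which encodes a SERTA domain protein, fell from 2.16 to 0.487 and 0.717 FPKM. TMPO-AS1 stood at 4.96, 4.57 and 4.13 FPKM in Scramble, at 1.28, 1.01 and 1.5 FPKM after Si-FIBP#1 and at 2.38, 1.59 and 1.99 FPKM after Si-FIBP#2, again without overlap. Its partner TMPO, which encodes the nuclear envelope protein lamina-associated polypeptide 2, fell from 99.0 to 42.9 and 38.9 FPKM. The exons of this pair share 713 bases, 21.2% of TMPO-AS1. ZFHX4-AS1 was the other called fall after Si-FIBP#1, from 4.97 to 1.94 FPKM, and RNF185-AS1 the other one after Si-FIBP#2, from 7.07 to 2.97 FPKM, where all 353 of its exonic bases lie opposite RNF185, a ubiquitin ligase gene.

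The rises were led by STXBP5-AS1 and SLC9A3-AS1 on the mean of both siRNAs. STXBP5-AS1 stood at 1.19, 1.14 and 1.16 FPKM in Scramble, at 4.11, 4.28 and 4.35 FPKM after Si-FIBP#1 and at 8.39, 5.60 and 8.38 FPKM after Si-FIBP#2. The 3 groups did not overlap, and the log2 fold changes were 1.28 ± 0.14 (limma FDR = 6.0e-05) and 1.95 ± 0.14 (FDR = 5.2e-06). STXBP5 encodes tomosyn, an inhibitor of vesicle fusion, and rose as well, from 10.6 to 17.5 and 17.3 FPKM. SLC9A3-AS1 stood at 7.21, 5.84 and 4.91 FPKM in Scramble, at 27.17, 21.26 and 20.24 FPKM after Si-FIBP#1 and at 16.29, 19.76 and 15.92 FPKM after Si-FIBP#2, at log2 fold changes of 1.78 ± 0.15 and 1.4 ± 0.15. All depleted samples were above all controls, while SLC9A3, the gene of a sodium and proton exchanger, was listed at 0.19 FPKM or less in all 9. SCAMP1-AS1 (3.86 to 11.5 and 10.7 FPKM), FOXD3-AS1 (5.64 to 14.6 and 15.4 FPKM) and TIPARP-AS1 (4.27 to 13.5 and 9.88 FPKM) rose with both siRNAs. They lie opposite a secretory carrier membrane protein, a forkhead transcription factor and a mono-ADP-ribosyltransferase gene. EXOC3-AS1, opposite an exocyst subunit gene, was at 2.93 ± 0.087, 9.40 ± 0.25 and 7.43 ± 0.27 FPKM (SD, n = 3 per group).

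**Figure D3:**
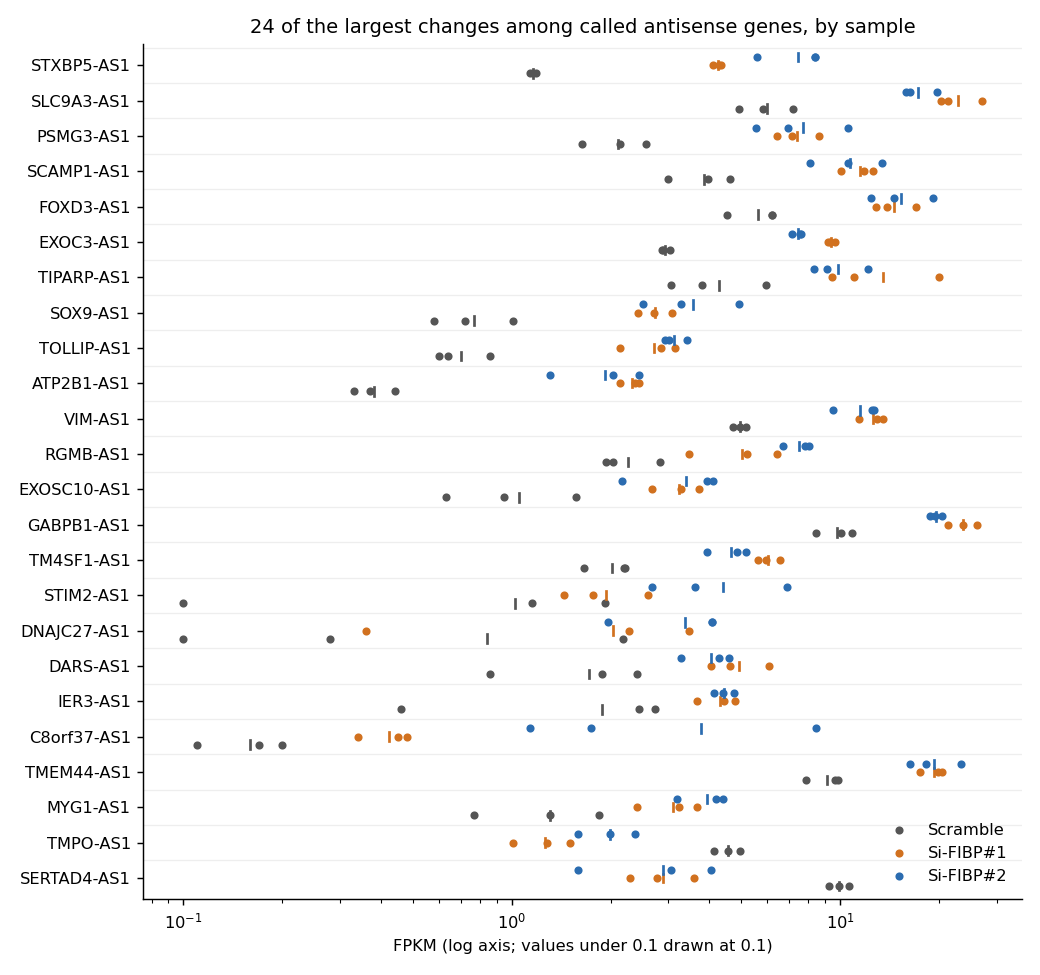
FPKM of 24 antisense genes in each of the 9 samples (points, horizontal log axis, group means as ticks, values under 0.1 drawn at 0.1), from the largest mean changes among the 41 genes called with either siRNA. The lower 2 rows, SERTAD4-AS1 and TMPO-AS1, have all depleted samples below the controls, and STIM2-AS1, DNAJC27-AS1 and C8orf37-AS1 have the widest spread.

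Other members of this group had partners of varied function. SOX9-AS1 (0.770 to 2.74 and 3.56 FPKM) and TOLLIP-AS1 (0.700 to 2.71 and 3.13 FPKM) lie opposite a developmental transcription factor and a Toll receptor adaptor gene. Both averaged under 1 FPKM in Scramble and were members through depleted samples, as were ATP2B1-AS1 and C8orf37-AS1. ATP2B1-AS1, opposite a plasma membrane calcium pump gene, was at 0.44, 0.33 and 0.37 FPKM in Scramble and at 1.31 to 2.45 FPKM in the depleted samples. RGMB-AS1, opposite the gene of a bone morphogenetic protein co-receptor, went from 2.27 to 5.04 and 7.53 FPKM, and EXOSC10-AS1, opposite a nuclease gene of the RNA exosome, from 1.05 to 3.23 and 3.40 FPKM. Both rose with each siRNA. PSMG3-AS1, opposite a proteasome assembly chaperone gene, went from 2.11 to 7.40 and 7.69 FPKM, TMEM44-AS1 from 9.15 to 19.3 and 19.3 FPKM, and MYG1-AS1 from 1.31 to 3.10 and 3.93 FPKM. Calls that rested on scattered samples included C8orf37-AS1, at 1.75, 8.44 and 1.14 FPKM after Si-FIBP#2 and 0.11 to 0.20 FPKM in Scramble, and STIM2-AS1, at 6.88, 2.67 and 3.61 FPKM after Si-FIBP#2 and 1.15, 1.92 and 0 FPKM in Scramble. The 0 has no counted reads behind it here, since the tables hold no counts. STIM2-AS1 averaged about 2.55 fragments a sample by the estimate from the FPKM steps. By the same estimate C8orf37-AS1 averaged about 9.27, EXOSC10-AS1 about 10.5 and MYG1-AS1 about 22.6, so their values also rest on few fragments.

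Because these genes were among the largest changes, the sequences at the start of TMPO-AS1 and SERTAD4-AS1, which fell, and of SLC9A3-AS1 and STXBP5-AS1, which rose, are shown with that of GABPB1-AS1, which rose while its partner fell. They run from 250 bases before to 50 bases after the RefSeq start on GRCh38.p14, 5′ to 3′ on the strand of the antisense gene. The RefSeq start equals the GENCODE start used for arrangement and exon overlap in SLC9A3-AS1 and STXBP5-AS1. It lies 162 bases from it in SERTAD4-AS1, 196 in TMPO-AS1 and 785 in GABPB1-AS1, whose window ends before the GENCODE start. Capitals mark matches, on either strand, to the motifs searched: TATAAA for the TATA box, CCAAT for the factor NF-Y, GGGCGG for the GC box, TTCNNNGAA for STAT factors, CCGGAAG for ETS factors, TTTGAA for the cell cycle homology region, and for E2F factors either TTTCGCGC or else TTTGGCGC.
TMPO-AS1 (chr12:98516177-98516476, minus strand): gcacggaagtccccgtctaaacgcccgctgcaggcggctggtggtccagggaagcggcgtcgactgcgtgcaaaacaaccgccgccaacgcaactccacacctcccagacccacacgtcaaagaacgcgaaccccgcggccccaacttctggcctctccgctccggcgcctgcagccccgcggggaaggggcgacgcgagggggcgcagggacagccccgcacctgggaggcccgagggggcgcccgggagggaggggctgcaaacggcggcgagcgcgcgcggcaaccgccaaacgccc
SERTAD4-AS1 (chr1:210233836-210234135, minus strand): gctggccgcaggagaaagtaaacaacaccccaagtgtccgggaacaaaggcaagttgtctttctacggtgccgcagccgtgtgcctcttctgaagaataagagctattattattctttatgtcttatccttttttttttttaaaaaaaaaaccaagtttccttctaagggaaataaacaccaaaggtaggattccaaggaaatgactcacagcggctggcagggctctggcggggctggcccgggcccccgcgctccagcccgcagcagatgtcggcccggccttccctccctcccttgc
SLC9A3-AS1 (chr5:472986-473285, plus strand): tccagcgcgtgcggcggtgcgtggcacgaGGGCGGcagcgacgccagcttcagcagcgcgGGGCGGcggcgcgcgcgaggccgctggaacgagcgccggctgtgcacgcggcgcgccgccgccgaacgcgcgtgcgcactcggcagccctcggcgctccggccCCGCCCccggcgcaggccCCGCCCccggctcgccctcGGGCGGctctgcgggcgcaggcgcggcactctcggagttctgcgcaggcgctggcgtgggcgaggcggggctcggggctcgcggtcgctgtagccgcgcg
STXBP5-AS1 (chr6:147204565-147204864, minus strand): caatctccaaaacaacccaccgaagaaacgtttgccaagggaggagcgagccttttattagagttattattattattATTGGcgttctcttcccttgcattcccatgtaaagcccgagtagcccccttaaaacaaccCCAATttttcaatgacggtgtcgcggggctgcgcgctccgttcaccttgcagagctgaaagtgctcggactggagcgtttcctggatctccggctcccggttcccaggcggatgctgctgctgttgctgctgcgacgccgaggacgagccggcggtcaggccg
GABPB1-AS1 (chr15:50353924-50354223, plus strand): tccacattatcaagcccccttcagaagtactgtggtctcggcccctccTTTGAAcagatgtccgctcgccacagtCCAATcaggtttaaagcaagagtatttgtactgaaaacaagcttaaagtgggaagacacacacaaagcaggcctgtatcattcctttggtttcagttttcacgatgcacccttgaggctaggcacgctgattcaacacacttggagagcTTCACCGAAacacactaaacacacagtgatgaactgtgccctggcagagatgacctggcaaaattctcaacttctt
The 2 that fell held none of these letters in this window. SLC9A3-AS1 held 5 GC boxes in a window of 82.3% GC, STXBP5-AS1 held CCAAT on both strands, and GABPB1-AS1 held TTTGAA as well as CCAAT, besides one copy of TTCNNNGAA, at 47.0% GC.

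Over all members, 243 of 315 had an entry among the RefSeq windows, 17 of them under a newer symbol, with 298 windows in all since some have several starts. GGGCGG was in 64.4% of these windows and in 60.1% of 431 partner windows, against 45.0% of all 35116 windows of that length. CCGGAAG was in 16.8%, 12.8% and 10.3%, and TATAAA in 5.03%, 8.35% and 11.5%. The STAT pattern TTCNNNGAA was in 5.37%, 6.96% and 7.66%, TTTGAA in 7.38%, 10.7% and 15.2%, and CCAAT in 29.9%, 35.5% and 34.6%. TTTCGCGC was in 0.671%, 0.464% and 0.515%, whereas TTTGGCGC was in 0.671%, 0.696% and 0.652%. Head-to-head pairs share part of their windows only where their starts lie close together. The median GENCODE start distance was 736 bases in the 135 overlapping head-to-head pairs and 105.5 bases in the 36 without overlap. How many pairs share window sequence was not counted. The windows were not matched for GC content, whose median was 65.3% in the antisense windows and 58.7% in all.

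To examine whether a pair moved together, the change of each antisense gene was set beside that of its partner in the 264 pairs whose partner was tested. With Si-FIBP#1, 24 had the antisense gene up and the partner down, 3 the reverse, 26 both up and 8 both down, and in the rest at least 1 of the 2 genes did not pass. With Si-FIBP#2 these were 21, 2, 30 and 8. Taken singly, 35.2% of the 315 antisense genes rose and 7.30% fell after Si-FIBP#1, and of the 263 partners 24.7% rose and 25.5% fell. For Si-FIBP#2 these shares were 35.2%, 7.94%, 30.8% and 21.3%. Whether opposed pairs were more frequent than such separate shares would give was not tested. Across pairs, Pearson's r was 0.16 and the Spearman coefficient 0.13 after Si-FIBP#1, and 0.11 and 0.10 after Si-FIBP#2. These describe genes measured in the same libraries against the same controls, and no p was computed. In the 99 pairs with over 10% of the antisense exons overlapping, the Spearman coefficient was 0.29 and 0.19, and in the 72 pairs without exonic overlap it was -0.10 and -0.07. Reads that fit both genes may be shared in the first set, and their part in it was not tested.

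**Figure D4:**
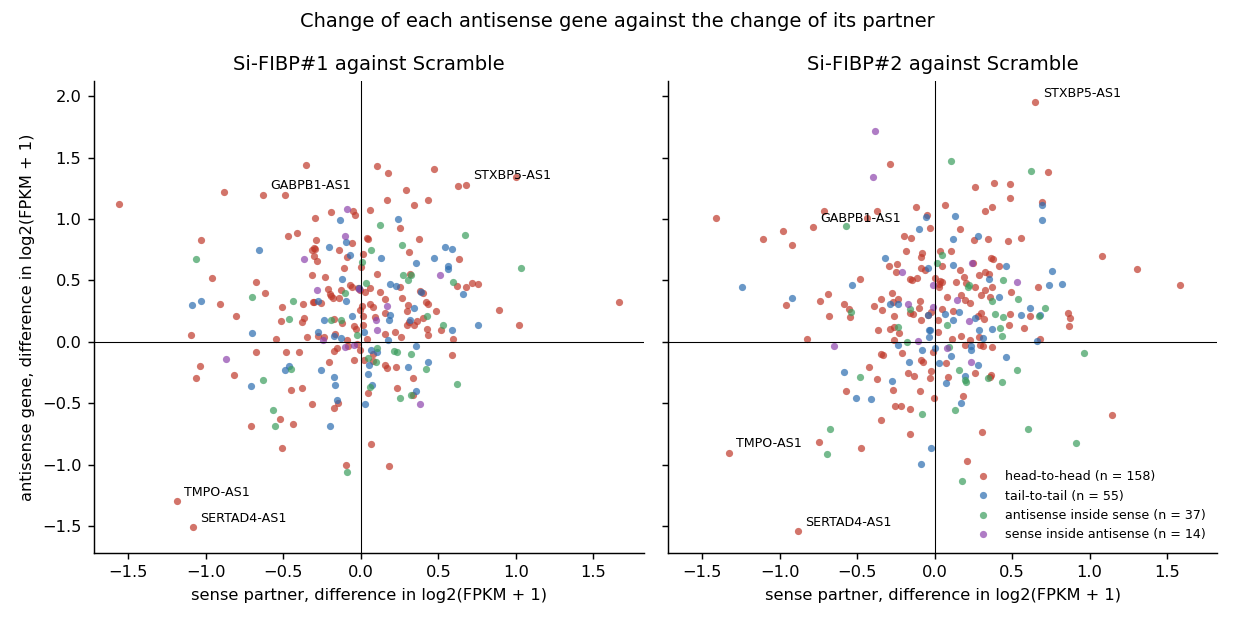
Difference in log2(FPKM + 1) from Scramble of each antisense gene (vertical axis) and of its partner (horizontal axis) for 264 pairs, coloured by arrangement. GABPB1-AS1 is in the upper left of both panels, and TMPO-AS1 and SERTAD4-AS1 in the lower left.

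By arrangement, the 171 head-to-head antisense genes had 67 up (39.2%, against 27.8% of all genes and 35.2% of all antisense genes followed) and 11 down (6.43%, against 19.9% of all genes) after Si-FIBP#1. After Si-FIBP#2 they had 66 up (38.6%, against 31.1% and 35.2%) and 13 down (7.60%, against 17.7%), at medians of 0.29 and 0.30. Of these 171 among 315 antisense genes, 20 were called higher after Si-FIBP#1 (11.7%, against 2.55% of all genes) and 18 after Si-FIBP#2 (10.5%, against 2.92%). They are 20 of the 23 and 18 of the 27 called rises, and under median ratio scaling 16 of 18 and 8 of 14. Called lower were 3 head-to-head genes after Si-FIBP#1 (1.75%, against 3.11% of all genes) and 1 after Si-FIBP#2 (0.585%, against 2.13%). These are 3 of the 3 and 1 of the 2 called falls, and under median ratio scaling 4 of 4 and 3 of 5. After Si-FIBP#1 the 70 tail-to-tail genes had 22 up (31.4%, against 27.8% of all genes) and 7 down (10%, against 19.9%). With Si-FIBP#2 they had 23 up (32.9%, against 31.1%) and 8 down (11.4%, against 17.7%), and the medians were 0.18 and 0.19. Called higher were 1 (1.43%) and 3 (4.29%) of these, against 2.55% and 2.92% of all genes. The 46 inside their partner had 10 up (21.7%) and 4 down (8.70%) with each siRNA, at medians of 0.16 and 0.13. Of these 46, 1 (2.17%) and 3 (6.52%) were called higher. The 23 that enclose their partner had 11 up (47.8%) and 1 down (4.35%), and 11 up (47.8%) and none down (limma, FDR). Their medians were 0.31 and 0.31, and 1 (4.35%) and 3 (13.0%) were called higher. Under median ratio scaling the genes inside their partner had 8 up and 4 down, and 8 up and 8 down, and those that enclose it had 8 up and 2 down, and 5 up and none down. The difference between arrangements was not tested.

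Pairs with the antisense gene up and the partner down had partners of varied function, and 12 pairs did so after each siRNA. They were chosen by these contrasts, so their values are a description. PAXIP1-AS1 went from 4.81 to 9.31 and 9.03 FPKM, with no exonic base opposite any annotated gene, while PAXIP1, a BRCT protein of the DNA damage response, went from 13.9 to 6.33 and 6.94 FPKM. PAXIP1-AS2, tail to tail with the same gene, went from 2.07 to 2.86 and 2.92 FPKM.

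GABPB1-AS1 stood at 10.86, 10.07 and 8.47 FPKM in Scramble, at 26.18, 21.31 and 23.66 FPKM after Si-FIBP#1 and at 18.77, 20.49 and 19.46 FPKM after Si-FIBP#2. GABPB1, a subunit of the ETS factor GABP, was at 13.48 to 15.32 FPKM in Scramble and at 7.23 to 10.57 FPKM in the depleted samples. The order of the pair turned over, from antisense below sense in all 3 controls to antisense above sense in all 6 depleted samples. TM4SF1-AS1 went from 2.03 to 6.05 and 4.66 FPKM while TM4SF1, a membrane protein gene, went from 570.4 to 309.4 and 290.4 FPKM. VIM-AS1 went from 4.95 to 12.6 and 11.5 FPKM while VIM, the intermediate filament vimentin, went from 3232 to 2307 and 1988 FPKM, although 32.2% of the VIM-AS1 exons lie opposite VIM exons. DNAJC9-AS1 (7.41 to 11.0 and 9.25 FPKM) and SRP14-AS1 (4.16 to 8.21 and 6.78 FPKM) shared no exonic base with DNAJC9, a histone chaperone gene (72.5 to 36.8 and 36.8 FPKM), and SRP14, a signal recognition particle gene (298.0 to 214.4 and 244.2 FPKM). RASSF1-AS1 went from 0.883 to 2.00 and 2.60 FPKM, with 83.4% of its exons opposite RASSF1, a Ras association domain gene that went from 12.3 to 5.37 and 7.91 FPKM.

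**Figure D5:**
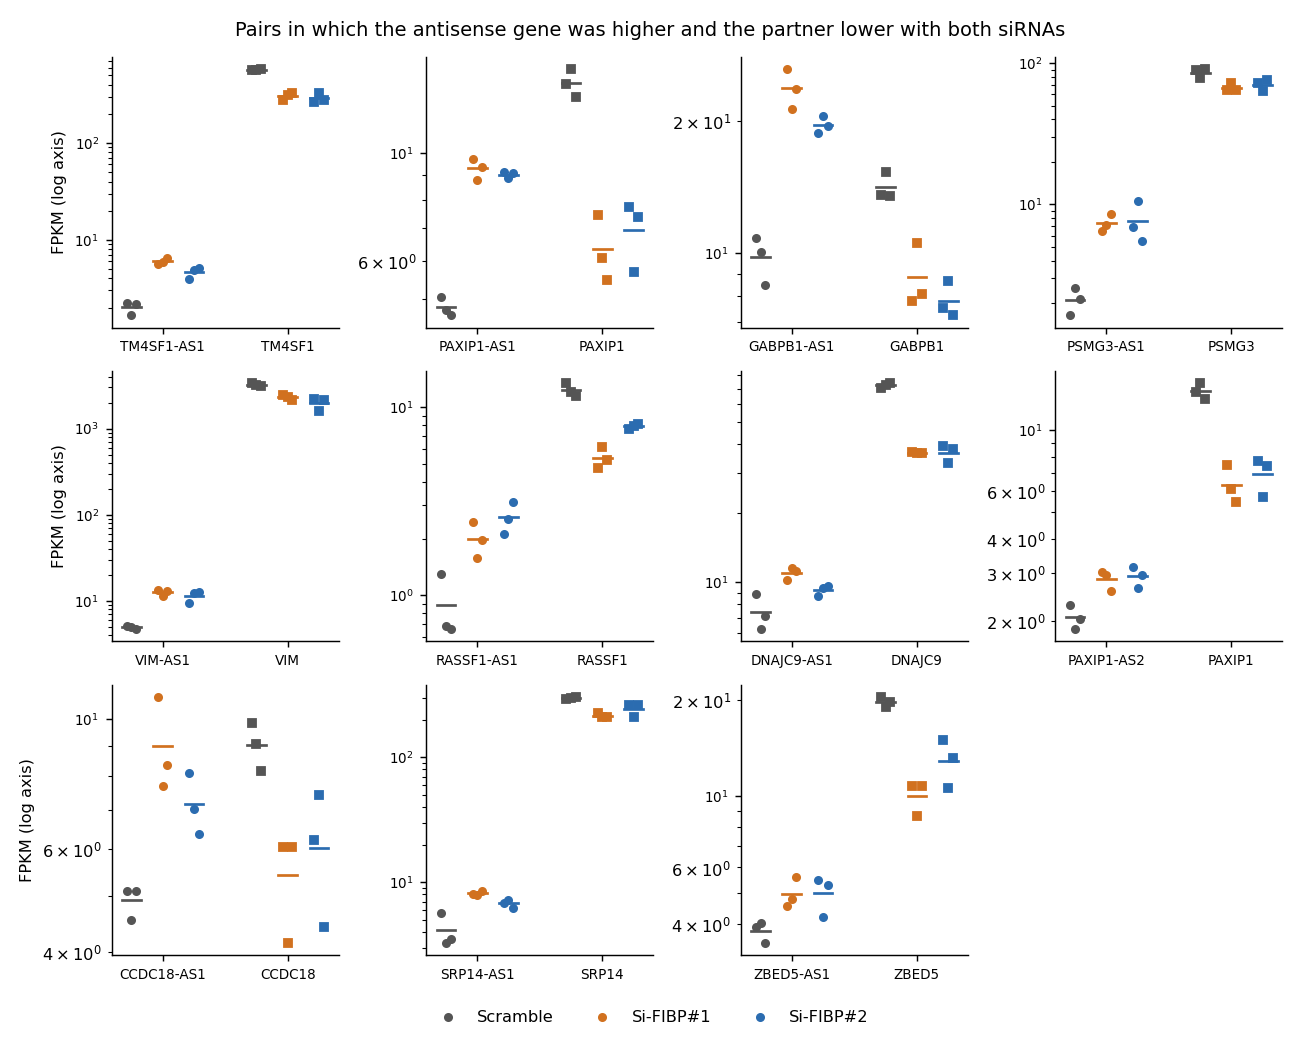
FPKM (vertical log axis, a scale for each panel) of 11 antisense genes (circles) and their partners (squares) in the 3 groups of 3 samples, with group means as lines. The pairs were chosen for opposite changes with each siRNA, so the directions are the choice itself. GABPB1-AS1 lies below GABPB1 in the controls and above it in the depleted samples.

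Among pairs that fell together with each siRNA, besides SERTAD4-AS1 and TMPO-AS1, were TPT1-AS1 (11.8 to 7.10 and 7.34 FPKM), H1-10-AS1 (2.07 to 0.907 and 0.753 FPKM) and TP73-AS1 (16.6 to 12.8 and 14.0 FPKM). They lie opposite the genes of translationally controlled tumour protein, a linker histone and the transcription factor p73. TP73-AS1 is annotated as a pseudogene. Pairs that rose together included STXBP5, EXOC3, ATP2B1 and DICER1, the last encoding the microRNA-processing nuclease, whose antisense gene DICER1-AS1 went from 5.99 to 9.30 and 11.6 FPKM.

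The functions of the partners were assigned by hand after the members were known, so the groups are a description. Among the 27 antisense genes opposite RNA processing and translation genes, 18 rose (66.7%) and none fell after Si-FIBP#1 and 16 rose (59.3%) and none fell after Si-FIBP#2 (limma, FDR), at medians of 0.46 and 0.48. Over all genes, 27.8% and 31.1% rose and 19.9% and 17.7% fell, and the shares of the other groups that rose ran from 23.5% to 38.2% and from 11.8% to 42.9%. URB1-AS1, opposite a ribosome biogenesis gene, went from 11.1 to 23.5 and 18.8 FPKM, and NIFK-AS1, opposite a nucleolar protein gene, from 4.90 to 7.44 and 8.48 FPKM. The 21 opposite DNA replication, repair and mitosis genes had 6 up and 3 down, and 9 up and 3 down, at medians of 0.19 and 0.27, which under median ratio scaling were 5 up and 5 down, and 4 up and 3 down. The 74 opposite transcription and chromatin genes had 21 up and 6 down, and 23 up and 6 down, at 0.18 and 0.26. The 45 opposite signalling and transport genes had 14 up and 3 down, and 15 up and 2 down. The 39 opposite trafficking, cytoskeleton and adhesion genes had 13 up and 4 down, and 15 up and 5 down. The 34 opposite mitochondrial and metabolic genes had 13 up and 3 down, and 9 up and 2 down. The 17 opposite protein folding and degradation genes had 4 up and none down, and 2 up and 1 down, the latter 2 up and 3 down under median ratio scaling. Under that scaling the mitochondrial group had 11 up and 3 down, and 6 up and 4 down. The signalling group had 12 up and 3 down, and 14 up and 4 down. The trafficking group had 12 up and 5 down, and 13 up and 6 down. The transcription group had 17 up and 8 down, and 19 up and 8 down. The RNA processing group had 16 up, and 12 up, with none down.

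A list of 25 antisense RNAs known from cancer work was also followed, of which 19 were members. It was chosen with earlier results of these data known, so its shares are a description. With Si-FIBP#1, 4 rose (21.1%, against 27.8% of all genes) and 6 fell (31.6%, against 19.9%), at a median of -0.20. With Si-FIBP#2, 5 rose (26.3%, against 31.1%) and 8 fell (42.1%, against 17.7%), at a median of -0.0047 (limma, FDR). FGD5-AS1 fell to 26.5 ± 1.5 and 26.7 ± 3.1 FPKM (SD, n = 3), from 42.8 ± 0.88 FPKM, with no overlap (log2 fold changes -0.67 ± 0.08 and -0.66 ± 0.08). THAP9-AS1, opposite a transposase-derived gene, fell from 19.3 to 9.18 and 9.38 FPKM. LOXL1-AS1, opposite a lysyl oxidase gene, fell from 8.21 to 5.03 and 5.40 FPKM. CDKN2B-AS1, the ANRIL RNA opposite the cell cycle inhibitor p15, fell after Si-FIBP#1 (5.89 to 3.87 FPKM) and was at 5.11 FPKM after Si-FIBP#2 (FDR = 0.34). MAPKAPK5-AS1 and TTN-AS1 rose, from 18.4 to 25.2 and 26.9 FPKM and from 5.54 to 8.28 and 8.12 FPKM. ZEB1-AS1 rose after Si-FIBP#1 (4.88 to 7.0 FPKM) and OIP5-AS1 after Si-FIBP#2 (13.7 to 19.1 FPKM). AFAP1-AS1, MCM3AP-AS1, VPS9D1-AS1 and FOXD2-AS1 fell after Si-FIBP#2, the last from 3.64 to 2.25 FPKM, and missed the threshold after Si-FIBP#1. NUTM2A-AS1, SBF2-AS1, DLGAP1-AS1 and HOXA-AS2 did not pass with either siRNA. Nor did the other HOX antisense genes: HOXB-AS1 had means of 6.72, 6.26 and 5.53 FPKM and HOXC-AS1 of 0.86, 0.98 and 2.02 FPKM in Scramble, Si-FIBP#1 and Si-FIBP#2.

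For the members of that list and the 10 highest genes, the log2 ratio of antisense to sense, each as FPKM + 1, was compared between the 6 depleted and the 3 Scramble samples in the 19 pairs with a tested partner. In 8 of them the depleted samples lay wholly beyond the controls, against 34.8% of all 264 pairs (70 with a higher ratio, 22 with a lower one). The 2-sided exact permutation p was 0.0238, the smallest that 6 against 3 samples can give, and 0.0565 after Benjamini-Hochberg adjustment over the 19 pairs. No pair passed 0.05 after adjustment, and 10 had an unadjusted p below 0.05. The ratio was higher for OIP5-AS1 (by 1.54, from -1.12 to 0.42 on the log2 scale), MAPKAPK5-AS1 (by 0.49) and OTUD6B-AS1 (by 0.35). It was lower for VPS9D1-AS1 (by -1.35), THAP9-AS1 (by -1.04), CDKN2B-AS1 (by -0.64) and MCM3AP-AS1 (by -0.36). For OIP5-AS1 most of the difference lay in OIP5, a centromere protein gene, which went from 30.8 to 13.9 and 12.4 FPKM. TMPO-AS1 and TMPO had overlapping ratios, with a difference of 0.16 (exact p = 0.429).

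The siRNAs were also compared with each other. Si-FIBP#2 was higher than Si-FIBP#1 in 9 of the 315 antisense genes (2.86%, against 9.58% of all genes) and lower in 9 (2.86%, against 5.80%) by limma FDR. MELTF-AS1, opposite the melanotransferrin gene, stood at 6.28, 6.43 and 4.61 FPKM in Scramble, at 8.26, 6.83 and 7.90 FPKM after Si-FIBP#1 and at 2.86, 3.30 and 3.20 FPKM after Si-FIBP#2. It thus rose with the first siRNA (log2 fold change 0.36, FDR = 0.035) and fell with the second (-0.71, FDR = 0.0012), while MELTF was at 20.5 and 20.9 FPKM with the 2 siRNAs and 34.1 FPKM in Scramble. ZFPM2-AS1 had means of 8.02, 9.17 and 15.4 FPKM, and CPNE8-AS1, opposite a copine gene, of 4.64, 5.31 and 10.2 FPKM. Both rose after Si-FIBP#2 and missed the threshold after Si-FIBP#1. EPHA5-AS1, opposite an ephrin receptor gene, had means of 1.4, 5.08 and 2.53 FPKM, and EPHA5 at 2.20, 5.40 and 3.01 FPKM, with 42.5% of the antisense exons shared.

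The tables give no counts, and how fragments per gene relate to replicate spread was not tested. From the spacing of low FPKM values, the libraries held about 20000000 to 23800000 fragments, and 1 fragment on a 1000-base transcript was worth 0.058 to 0.068 FPKM. The median member had about 73.2 fragments a sample, 19 members had under 10 and 20 had a leading transcript under 400 bases, where 1 fragment moves FPKM most. A median of 5 transcripts per member was above 0, the leading one held a median of 54.2% of the FPKM, and 32 members took over 50% of theirs from transcripts assembled by the authors, among them ZRANB2-AS2 (94.8%), MAGEA4-AS1 (66.5%), ID2-AS1 (62.6%) and STXBP5-AS1 (53.2%).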

How the data were processed

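Poly(A)-selected paired-end RNA-seq was run on 9 H1299 samples. Per the labels, the authors used HISAT2 and StringTie, and the versions, genome build and annotation release are not given in the sources used here. The authors deposited 1 table per sample with a value per transcript rounded to 2 decimals, which by its sums is FPKM, for 244443 transcripts, 14956 of them assembled. FPKM was summed per gene identifier. Members are genes named with AS and a digit, with a mean of at least 1 FPKM over 9 samples, and partners carry the name before AS (1 by RefSeq synonym). The members and lists were chosen with earlier results of these data known.

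The test covered every gene reaching 1 FPKM in 3 or more samples, using limma 3.58.1 (trend) in R 4.3.3 on log2(FPKM + 1), with Benjamini-Hochberg adjustment over 14985 genes. Simulated data checked the fit. Some genes are counted but not reported by name here. Log2 ratios of FPKM + 1 were tested by exact permutation (scipy 1.17.1). Coordinates and exons came from GENCODE release 29 (GRCh38), promoters from RefSeq. Depth was estimated from FPKM steps and a length offset. Genes chosen for naming were the 25 of largest mean change among the 41 called with either siRNA, the 10 highest and 3 on each side of the threshold. Up to 10 opposed to their partner, up to 10 differing between the siRNAs, and the list of 25 were added. Others (URB1-AS1, NIFK-AS1, DICER1-AS1 and the further pairs) were named after their values were seen. Alternatives were TPM, median ratio scaling, a pseudocount of 0.1, no filter, a filter of 5 FPKM, annotated transcripts alone, fewer samples, a replicate block and leaving out each sample.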

Additional observations from a re-analysis of the deposited data

Results flagged for a closer look

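The 2 siRNAs against FIBP gave different changes in 18 antisense genes, 17 of them named here, by a test of the difference between them (limma, FDR below 0.05). Of the 315 antisense genes, 2.86% were higher after Si-FIBP#2 and 2.86% lower, smaller shares than the 9.58% and 5.80% of all genes. Values are Si-FIBP#2 minus Si-FIBP#1 in log2(FPKM + 1). Lower after Si-FIBP#2 were RNF185-AS1 (-1.63), MELTF-AS1 (-1.07), EPHA5-AS1 (-0.77), FOXP4-AS1 (-0.69), NINJ2-AS1 (-0.45), PARD6G-AS1 (-0.44), ZNF528-AS1 (-0.44) and EXOC3-AS1 (-0.30). Higher after Si-FIBP#2 were DLGAP1-AS2 (0.39), TAPT1-AS1 (0.56), RFX3-AS1 (0.60), ZRANB2-AS2 (0.63), STXBP5-AS1 (0.67), ZFPM2-AS1 (0.69), FOXD1-AS1 (0.69), ZNF793-AS1 (0.76) and CPNE8-AS1 (0.81). RFX3-AS1 had means of 0.37, 0.85 and 1.79 FPKM in Scramble, Si-FIBP#1 and Si-FIBP#2, and TAPT1-AS1 of 0.45, 1.2 and 2.24 FPKM. Both were members through depleted samples, so their differences are a description. MELTF-AS1 and DLGAP1-AS2 passed in opposite directions against Scramble, the second at -0.20 and 0.20. For FOXD1-AS1 and RNF185-AS1, whose exons lie wholly opposite their partner, FOXD1 differed by 0.65 in the same direction and RNF185 stood at 13.4 and 12.2 FPKM. ZRANB2-AS2 took 94.8% of its FPKM from assembled transcripts, and its difference was -0.54 with annotated transcripts alone. By the estimate from the FPKM steps, RNF185-AS1, FOXP4-AS1 and RFX3-AS1 averaged only about 11.7, 13.1 and 11.0 fragments a sample.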

How the results depend on the processing

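The 134 and 136 antisense genes that passed after Si-FIBP#1 and Si-FIBP#2 kept their direction in every alternative in which they were tested, except 2 of them after Si-FIBP#2 under annotated transcripts alone. There ZRANB2-AS2 had -0.40 after Si-FIBP#2 and -0.54 between the siRNAs, and ID2-AS1 had -0.051 after Si-FIBP#2. Both take most of their FPKM from assembled transcripts, which that alternative leaves out.

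Called rises (23 and 27) became 46 and 47 with a pseudocount of 0.1, 15 and 14 with a filter of 5 FPKM, which tests fewer genes, and 14 for Si-FIBP#2 with median ratio scaling. Called falls (3 and 2) became 5 and 8 with the pseudocount of 0.1, 1 for Si-FIBP#1 with the 5 FPKM filter, and for Si-FIBP#2 5 with median ratio scaling and 1 with no filter. With no fold threshold they were 111 and 111 up, 23 and 25 down. Rises by FDR were 50 and 56 with the 5 FPKM filter. Falls by FDR after Si-FIBP#2 were 39 with median ratio scaling and 16 with the 5 FPKM filter. Between the siRNAs, called genes were 0 higher and 2 lower, 9 and 9 with no fold threshold, 1 higher with TPM or a pseudocount of 0.1, and 4, 5 and 5 passed lower (9 in the report) with no filter, the 5 FPKM filter and annotated transcripts. The cause of these changes in count was not tested.

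Leaving out 1 sample gave 19 to 26 and 22 to 27 called rises, 2 to 5 and 1 to 4 called falls, 92 to 114 and 95 to 110 rises by FDR, and 17 to 24 and 19 to 26 falls by FDR. Called falls were 5 after Si-FIBP#1 without Scramble replicate 3, and after Si-FIBP#2 they were 1 without Scramble replicate 2 and 4 without Scramble replicate 3 or Si-FIBP#2 replicate 3. Between the siRNAs 6 to 12 passed higher and 3 to 12 lower, with 3 lower without Si-FIBP#1 replicate 1 or 2 or Si-FIBP#2 replicate 3, and 5 without Si-FIBP#1 replicate 3 or Si-FIBP#2 replicate 1. The 8 pairs beyond the controls were 8 to 10. The number of members, 315, was not recomputed without single samples. It was 353 with TPM and 290 with annotated transcripts alone.

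The labels do not say whether the replicate numbers pair the samples. Deviations of same-numbered samples correlated at -0.0568 to 0.1025, and those of differently numbered samples at -0.1417 to 0.049. From these values pairing can be neither shown nor excluded. With the replicate block, 24 and 26 genes were called higher, 3 and 2 lower, 109 and 109 passed higher and 20 and 23 lower. The depth limits genes with few fragments, and FPKM with no strand setting stated limits pairs with shared exons.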
